A study of Homo sapiens with 105 samples.

Results

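Hydroxyethyl cellulose (HEC) and carboxymethyl cellulose (CMC) are water-soluble ethers of cellulose, and they served as the non-inflammatory compounds (NICs) of a study of vaginal cells. Their arrays were pooled here by their titles, all 9 of HEC and all 9 of CMC, which gives 18 of the 105 arrays of the series. Vk2/E6E7 cells, vaginal epithelium immortalized with papillomavirus E6 and E7, were kept for 6 h with 1 mg/ml of either gel or in growth medium alone (GM), and RNA was read on Affymetrix U133 Plus 2.0 arrays. GM had 54 arrays, of which 53 were used. The pro-inflammatory compounds (PICs) enter only as a measure of size, and they were TNF-alpha (40 ng/ml), Pam3CSK4 (10 μg/ml), MALP2 (200 ng/ml), nonoxynol 9 (N9, 12.5 μg/ml) and imiquimod (30 mg/ml in the labels, μg/ml in the study's methods), also for 6 h. All groups share a single cell line grown as a layer in serum-free medium, with no stroma and no leukocytes. The questions were what both gels share against GM, how far they differ from each other, and how large a change these arrays exclude.

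Cellulose ethers are chains of glucose that human enzymes do not cut, and they thicken water. HEC carries neutral hydroxyethyl groups and CMC carries negatively charged carboxymethyl groups. HEC gel is a common placebo in trials of vaginal microbicides, so what it does by itself to the epithelium bears on every comparison made against it. The vaginal epithelium answers microbial ligands and damage through NFκB, with chemokines that call in leukocytes, and it renews itself by differentiation into flat cells with a cornified envelope.

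The arrays came in runs, which decided the unit of the comparison. Among the 20% of probesets with the highest level, arrays of 3 consecutive replicate numbers deviated together from the mean of their group. The correlation of their deviations, a description over probesets that share each array, had a median of 0.858 for arrays of the same run and -0.113 for arrays of different runs. Over all probesets these medians were 0.225 and -0.0468, and the gel runs ranged from 0.0253 to 0.272. The labels do not name these runs. Each run was averaged to a single value, which leaves 6 gel runs (3 of HEC and 3 of CMC, named by their order in the replicate numbers) and 18 GM runs, and the p-values measure the spread between runs, which may be technical. The 9 measured epithelial markers, among them KRT5, KRT14, CDH1 and EPCAM, had GM means of at least 8.29 on the log2 scale. GM means lay between 4.33 and 7.16 for 10 leukocyte markers, between 3.41 and 10.83 (COL1A1) for 10 markers of fibroblasts and endothelium, and between 5.62 and 7.22 for 4 of melanocytes. Levels of different probesets cannot be set against each other, so no identity was read from these values.

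Runs of 2 kinds stood out before any comparison. HEC run 2, CMC run 1 and GM runs 2 and 3 lay far from all others on the first principal component, which held 22.74% of the variance, and 10 of their 12 arrays had a mean log2 signal under 8 on the control probesets for 18S ribosomal RNA. None of the 45 other arrays with these controls in order did, with a lowest value of 8.31. The second kind was a fault of row order. In 23 arrays, 14 of them GM and none of them gel arrays, 1118 probesets (2.05%) stood 1 row away from their place, and they were put back. As deposited, the values of these arrays in those rows correlated with the probesets' medians at 0.405 at most, and at 0.874 or more once put back. Values without the runs that stood apart, within them and without the runs with displaced rows are given beside the results they bear on most. A further alternative kept only GM replicates 1 to 9, which are GM runs 1 to 3 and so include both GM runs that stood apart. Of the 97 named genes, 45 had a difference of the opposite sign against these controls, 24 had it within the runs that stood apart, and 8 had it without them.

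**Figure D1:**
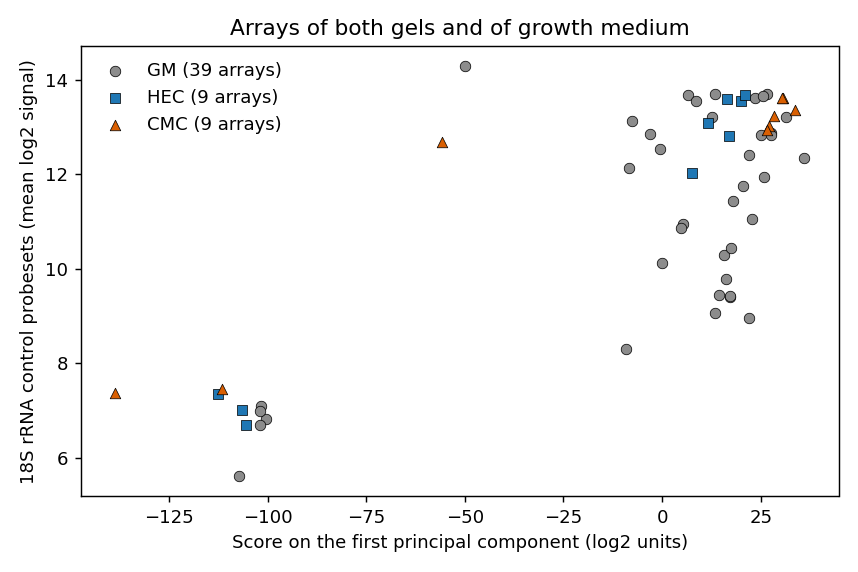
Each point is an array, placed by its score on the first principal component of log2 signals (x axis) and by its mean log2 signal on the 18S rRNA control probesets (y axis), for GM (39 arrays whose control rows are in order), HEC (9) and CMC (9). The arrays of HEC run 2, CMC run 1 and GM runs 2 and 3 sit at the left, at scores of -49.85 or lower, while all others lie at -9.06 or higher.

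No probeset passed the test of the pooled gels against GM. With the call set at a fold over 2 and a p under 0.05 after Benjamini-Hochberg adjustment, limma called 0 of 54613 probesets in either direction (0%), and the smallest adjusted p was 0.284. At an unadjusted p under 0.05 there were 2248 (4.12%), of which 1091 (2%) were higher with the gels and 1157 (2.12%) were lower. All 6 gel runs lay above the GM median for 1220 probesets (2.23%) and below it for 1256 (2.3%), and for 0 probesets did they lie outside all 18 GM runs. Each gel by itself gave the same count. HEC against GM called 0 probesets, with 2530 (4.63%) at an unadjusted p under 0.05 and a smallest adjusted p of 0.309, and CMC against GM called 0, with 988 (1.81%) and a smallest adjusted p of 0.106. Both comparisons use the same GM runs. The unit matters for these counts, since with every array taken as independent limma called 38 probesets for the pooled gels, 10 higher and 28 lower, 170 for HEC and 4 for CMC. Without the runs that stood apart it called 2, both lower with the gels and both probesets with no gene name.

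Most probesets could nevertheless be bounded. The 95% interval of the pooled difference reached a median of 0.489 on the log2 scale to either side of the estimate, and for the median probeset it excluded a change of over 1.59-fold in either direction. For 95% of the probesets it excluded a change of over 2.69-fold, and for 79.6% it lay within 2-fold. An equivalence test, a pair of one-sided limma tests adjusted over all probesets, placed 46216 probesets (84.6%) within 2-fold of GM and 20295 (37.2%) within 1.5-fold. Intervals adjusted for all 54613 probesets at once lay within 2-fold for 8041 (14.7%) and within 4-fold for 35376 (64.8%). The estimates themselves ran from -1.93 to 1.66 on the log2 scale, and 324 of them passed 2-fold.

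The bound depended on the level of the probeset. In the dimmest 20% the interval reached a median of 0.658 to either side and 70.9% of the probesets were placed within 2-fold, while in the brightest 20% it reached 0.33 and 97.2% were. Within 1.5-fold the shares were 13.9% in the dimmest 20%, 7.94% in the next and 71.6% in the brightest. Single gels were bounded less well, since each has 3 runs. Within 2-fold of GM the equivalence test placed 33917 probesets (62.1%) for HEC and 36978 (67.7%) for CMC.

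**Figure D2:**
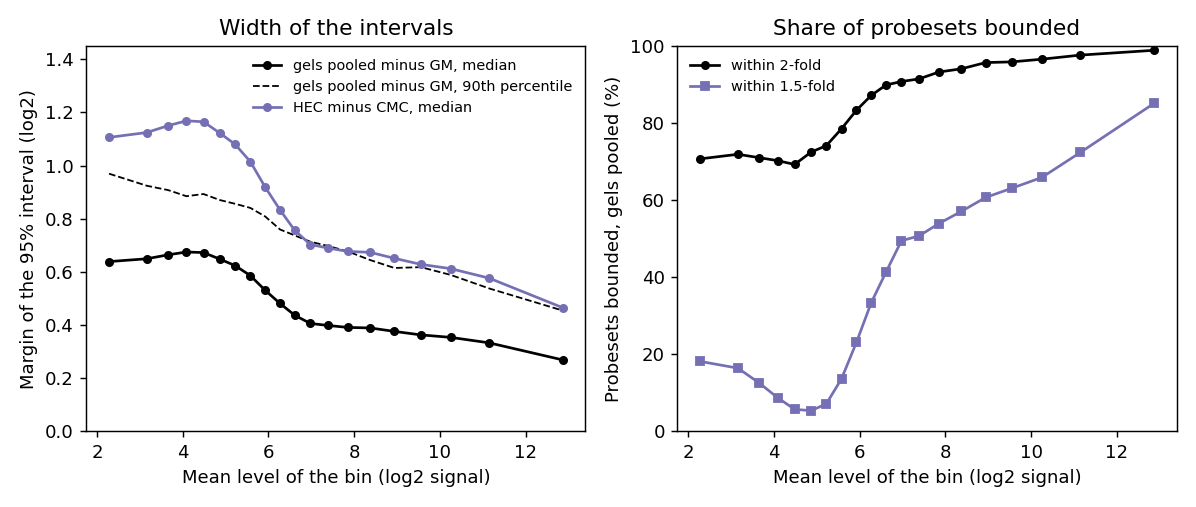
Left, the distance from the estimate to the limit of its 95% interval (y axis, log2) for probesets grouped by mean level (x axis, log2 signal), as the median and 90th percentile for the pooled gels against GM and the median for HEC against CMC. Right, the percentage of probesets in each group that the equivalence test placed within 2-fold or 1.5-fold of GM with the pooled gels. The intervals narrow and the shares bounded grow toward high levels.

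The PIC-DGs are 20 genes that the study picked on these same arrays for a change with every PIC and none with the NICs, so a small gel difference is partly built into the choice and no support is drawn from it. Of the 20, 0 passed the adjusted test, 1 had an unadjusted p under 0.05, 16 had a pooled difference below 0 and 4 above, and the median difference was -0.35 on the log2 scale, beside 0.0020 over all probesets. The median of the list was -0.18 without the runs that stood apart and -0.097 within them, where 14 of 20 were below 0, and against GM replicates 1 to 9 it was 0.10, with 11 of 20 above 0. The equivalence test placed 7 of them within 2-fold, namely GSAP, INHBA, NFKBIZ, OLR1, PPP4R4, SERPINB2 and TNFAIP3. The highest upper limit in the list was that of PTGS2, the inducible prostaglandin synthase, at 0.93 on the log2 scale (1.91-fold).

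CXCL8, the chemokine that attracts neutrophils, had run means on the log2 scale of 7.95, 7.07 and 8.42 with HEC and of 7.18, 8.27 and 7.84 with CMC, and GM runs lay between 7.24 and 9.98 with a median of 8.22. The 2 gel runs below all GM runs were the 2 that stood apart, and GM runs 2 and 3 were low as well, at 7.24 and 7.66. The pooled difference was -0.61 (95% interval -1.40 to 0.18), and without the runs that stood apart it was -0.39. It was 0.14 against GM replicates 1 to 9. With the rows as deposited, before the displaced rows were put back, it was -1.91 (unadjusted p = 0.0325, limma adjusted p = 0.972), and without the runs with displaced rows it was -0.61. The smallest difference of CXCL8 with a PIC was 3.33, with N9.

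CCL20, which attracts dendritic cells and memory T cells, had run means of 3.49, 3.44 and 6.05 with HEC and 2.99, 4.70 and 4.63 with CMC, inside a GM range of 3.34 to 9.62 but for CMC run 1. Its pooled difference was -1.30 (95% interval -2.69 to 0.091), against at least 3.95 with each PIC. The gel difference was -1.05 without the runs that stood apart, -0.28 within them and 0.77 against GM replicates 1 to 9, so its direction depended on the GM runs used. TNFAIP3, the ubiquitin-editing inhibitor of NFκB also called A20, differed by -0.033 (-0.58 to 0.51), and all 6 gel runs lay inside the GM range of 8.46 to 10.27. Its smallest difference with a PIC was 2.29, with Pam3CSK4.

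CYLD, a deubiquitinase that restrains NFκB, was the member with an unadjusted p under 0.05, at -1.12 (95% interval -2.03 to -0.21, p = 0.0176, adjusted p over all probesets not past the threshold in limma). HEC runs were at 4.30, 4.68 and 5.72 and CMC runs at 6.48, 6.39 and 7.44, with GM runs between 4.69 and 8.94. The low values were therefore those of HEC, and HEC minus CMC was -1.87 (-3.44 to -0.29, unadjusted p = 0.0217). It was 1 of 7 CYLD probesets, and none of the other 6 had an unadjusted p under 0.05. Without the runs that stood apart the pooled CYLD difference was -1.17 (unadjusted p = 0.0327), within them it was 0.021, and against GM replicates 1 to 9 alone it was 0.57.

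The other chemokines and inflammatory genes of the PIC-DG panel were bounded on the upper side below 1 on the log2 scale. CXCL2 and CXCL3, further ligands of the neutrophil receptor CXCR2, differed by -0.60 (-1.28 to 0.083) and -0.40 (-1.15 to 0.35). NFKBIZ, an atypical IκB that NFκB induces, differed by 0.16 (-0.33 to 0.65), and INHBA, the activin subunit, by 0.11 (-0.50 to 0.72), and these were -0.29 and -0.74 against GM replicates 1 to 9. PRDM1, a transcriptional repressor, came close to the unadjusted threshold at -0.61 (-1.23 to 0.0036, p = 0.0513). G0S2, an inhibitor of triglyceride lipase, was among the members on which the gels lay farther apart, with HEC minus CMC at 0.98 (-0.59 to 2.56), and for PTGS2 this difference was 1.02 (-0.93 to 2.97).

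The choice of the panel on these same arrays partly fixes the next count, and the PIC values are estimates without intervals. For 18 of the 19 PIC-DGs that were higher with the PICs, the smallest PIC difference lay above the upper limit of the gels' interval. The exception was PPP4R4, a regulatory subunit of protein phosphatase 4, whose upper limit was 0.78 and whose smallest PIC difference, with N9, was 0.61. CAVIN2, a caveolae protein, was the member lower with the PICs, with a smallest fall of -1.40 with Pam3CSK4 beside a lower gel limit of -1.41. KRT34, a hair keratin, shows how the runs enter these values. It was at 7.60, 3.43 and 7.34 with HEC and 3.37, 5.64 and 7.07 with CMC, and GM runs 2 and 3 were at 3.42 and 3.49 where the GM median was 7.4. Its pooled difference of -1.25 (-2.73 to 0.23) became -0.52 without the 4 runs that stood apart and -0.055 within them, and it was 0.50 against GM replicates 1 to 9.

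The study left COL8A1 and MMP1 out of its panel because it called them changed by the gels too. It called MMP1 higher with HEC and COL8A1 lower with both gels, by an analysis of variance with a fold limit. With runs as units neither passed the adjusted test here. COL8A1, a short-chain collagen, had a pooled difference of -0.98 (95% interval -2.38 to 0.41) and run means of 6.97, 9.45 and 7.28 with HEC and 9.21, 8.17 and 6.90 with CMC, inside the GM range of 6.00 to 11.45. MMP1, interstitial collagenase, differed by 0.63 (-0.79 to 2.05), with HEC at 11.17, 10.21 and 10.90, CMC at 10.12, 9.54 and 8.26 and GM between 5.46 and 11.23. Other COL8A1 probesets, with lower GM means, differed by -0.40 (-1.48 to 0.68) and -0.15 (-0.80 to 0.49). By the probeset used, COL8A1 was at -1.58 without the runs that stood apart and -0.22 within them. For MMP1 the corresponding differences were 0.69 and -0.28, and its difference against GM replicates 1 to 9 was -0.65. No gel run of either gene lay outside the GM runs, whose own range was over 5 on the log2 scale for both.

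**Figure D3:**
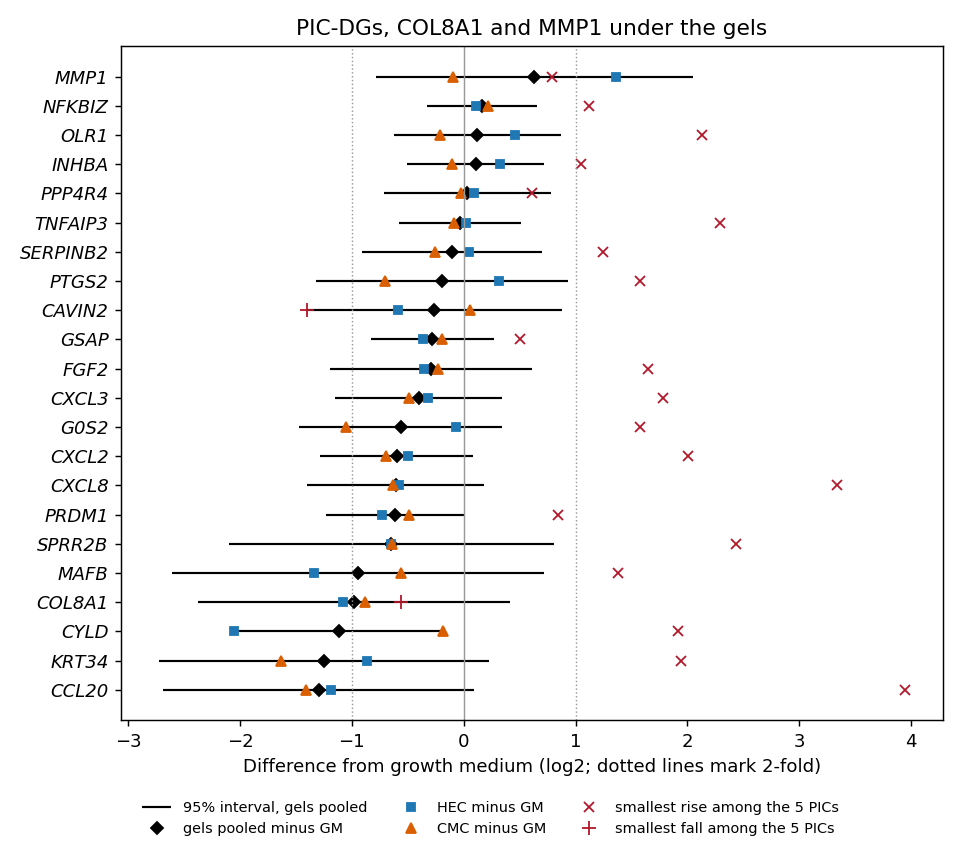
Differences from GM on the log2 scale (x axis) for the 20 PIC-DGs, COL8A1 and MMP1 (rows). Diamonds are the pooled gels with their 95% interval from 6 gel and 18 GM runs, squares HEC, triangles CMC, and crosses the smallest rise (a plus sign, the smallest fall, for CAVIN2 and COL8A1) among the 5 PICs. Most crosses lie right of the intervals, and PPP4R4 and MMP1 do not.

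Of the 403 genes in 26 lists with a probeset, 0 passed the adjusted test with the pooled gels, in either direction. At an unadjusted p under 0.05 there were 7, all lower, beside 2.12% of all probesets in that direction, and 0 higher, beside 2%. The 7 were CYLD, CHAC1, CLDN4, DUSP1, IL24, LIF and TGM3. Of the 403, 243 had a difference below 0 and 160 above. The equivalence test placed 290 of the 403 within 2-fold, a smaller share than the 84.6% of all probesets, and the lists differed in how well they were bounded.

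With all runs used, several stress programmes were placed within 2-fold of GM in full. All 10 measured genes of the osmotic response were, with a median difference of 0.058 (log2), and these include NFAT5, the factor that answers high tonicity, at 0.079 (95% interval -0.20 to 0.36), and SLC5A3, an inositol importer, at 0.093 (-0.27 to 0.46). All 11 heat shock genes were, with a median of -0.010, and HSPD1, the mitochondrial chaperonin, was bounded most closely at -0.010 (-0.16 to 0.14). The 95% intervals themselves lay within 2-fold for 9 of the 10 osmotic and 9 of the 11 heat shock genes. The upper limit of AQP3 was 1.09 and the lower limit of HSPA6 was -1.09. All 12 genes of cholesterol synthesis were placed within 2-fold, with a median of 0.011. Of the 18 NRF2 targets and metallothioneins 17 were, all but the zinc exporter SLC30A1 at -0.41 (-1.09 to 0.26), and of 21 genes of hypoxia and glycolysis 20 were, all but PFKFB4. In this order of lists, the counts without the runs that stood apart were 8, 9, 11, 16 and 19. Within them they were 3, 5, 7, 12 and 6, and against GM replicates 1 to 9 they were 8, 11, 6, 12 and 11. These fits use fewer runs. Against GM replicates 1 to 9, 19 of the 21 hypoxia and glycolysis genes were below 0, with a median of -0.23.

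The NFκB pathway itself had a median of -0.0088 over 15 genes with all runs used, beside 0.0020 over all probesets. Of these 15 genes 13 were placed within 2-fold, near the 84.6% of all probesets, and CYLD (-1.12) and TNIP3 were not. Against GM replicates 1 to 9 the median was -0.26, with 10 of 15 below 0 and 9 placed within 2-fold. Within the runs that stood apart it was -0.039, with 7 placed within 2-fold. The values that follow are from all runs. NFKB1 differed by 0.16 (-0.16 to 0.48), RELA by -0.0088 (-0.35 to 0.33) and NFKBIA, the inhibitor that NFκB induces, by 0.17 (-0.44 to 0.77). The receptors and enzymes that could meet a polysaccharide were bounded about as often as all probesets. Of 19 genes for hyaluronan, lectins and carbohydrate receptors 16 were placed within 2-fold, beside 84.6% of all probesets. CD44, the hyaluronan receptor, differed by 0.16 (-0.28 to 0.59). CLEC7A, the glucan receptor dectin-1, differed by 0.079 (-0.34 to 0.50), and TLR2 by 0.29 (-0.022 to 0.61). Of the 19 genes, 11 were placed within 2-fold against GM replicates 1 to 9 and 6 within the runs that stood apart.

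With all runs used, most markers of cell type were bounded. All 9 epithelial markers were placed within 2-fold of GM, with KRT5 at 0.094 (-0.072 to 0.26) and CDH1, E-cadherin, at -0.050 (-0.33 to 0.23). So were all 10 markers of fibroblasts and endothelium and all 4 of melanocytes. Of the 10 leukocyte markers 7 were, and CD14, CD3E and CD4 were not, with CD14 at -0.78 (-1.82 to 0.26), which was -0.16 without the runs that stood apart. Against GM replicates 1 to 9, 8 of 9 epithelial and 5 of 10 leukocyte markers were placed within 2-fold. For fibroblasts and endothelium it was 5 of 10 and for melanocytes 0 of 4. Within the runs that stood apart these counts were 7, 3, 2 and 0, and without them 9, 7, 10 and 4. All 10 reference genes were placed within 1.5-fold, among them GAPDH at 0.083 (-0.087 to 0.25) and ACTB at 0.029 (-0.12 to 0.18).

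Genes of differentiation and of defence were the least well bounded, and most of their differences were below 0. Of 23 genes of the cornified envelope and differentiation 21 were below 0, beside 243 of all 403 list genes. The median was -0.44 and 5 were placed within 2-fold. Only 1 had an unadjusted p under 0.05, beside 2.12% of all probesets in that direction. That 1 was TGM3, a transglutaminase, at -0.52 (95% interval -1.03 to -0.0038, p = 0.0484), with -0.76 without the runs that stood apart and 0.075 within them. The widest interval was that of CNFN, cornifelin, at -1.94 (-4.93 to 1.06). Without the runs with displaced rows all 23 were below 0, with a median of -0.77, and within the runs that stood apart 17 were, with a median of -0.089. Against GM replicates 1 to 9, 10 of the 23 were below 0 and the median was 0.053. Of 17 antimicrobial and acute phase genes 16 were below 0, with a median of -0.54 and 5 placed within 2-fold. S100A8 differed by -0.60 (-1.50 to 0.31) and the protease inhibitor SLPI by -0.63 (-1.56 to 0.29). No gene of this list had an unadjusted p under 0.05. Without the runs with displaced rows 3 had, all lower, among them SLPI at -0.95 (unadjusted p = 0.0461). The median was -0.40 without the runs that stood apart, with 14 of 17 below 0, -0.14 within them, with 12 of 17, and -0.041 against GM replicates 1 to 9, with 12 of 17.

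Of 22 immediate early and feedback genes 17 were below 0, beside 243 of all 403 list genes, and 1 had an unadjusted p under 0.05. DUSP1, a phosphatase that switches off MAP kinases, was the lowest of them. Its run means were 10.02, 9.75 and 10.47 with HEC and 9.83, 10.37 and 10.89 with CMC, and GM runs lay between 10.04 and 13.43 with a median of 10.93. All 6 gel runs were below the GM median and 3 were below every GM run, among them the 2 that stood apart, and GM runs 2 and 3 were the lowest of GM at 10.04 and 10.06. The difference was -0.97 (95% interval -1.67 to -0.26, unadjusted p = 0.00892). It was -0.89 (unadjusted p = 0.0303) without the runs that stood apart, -0.26 within them and -0.13 against GM replicates 1 to 9. This was 1 of 3 DUSP1 probesets, and the others differed by -0.41 (p = 0.375, unadjusted) and -0.29 (p = 0.346, unadjusted). NR4A1, a nuclear receptor of the same early response, differed by -0.83 (-1.67 to 0.019) and EGR1 by -0.21 (-0.83 to 0.42).

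CHAC1, an enzyme that degrades glutathione and a target of ATF4, had run means of 4.30, 5.54 and 5.25 with HEC and 6.05, 6.70 and 5.62 with CMC, below a GM median of 6.81 in all 6, and GM runs reached down to 4.14. The difference was -1.15 (-2.04 to -0.25, unadjusted p = 0.0139). It was -1.33 (unadjusted p = 0.0224) without the runs that stood apart, -0.36 within them and 0.096 against GM replicates 1 to 9 alone, so its direction rests on the other GM runs. The list it belongs to, ATF4 and the unfolded protein response, had 17 of 19 genes placed within 2-fold and a median of -0.13. With arrays as independent units DUSP1 and CHAC1 passed, at limma adjusted p of 0.0213 and 0.0452, and no other list gene did.

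Among 26 cytokines and growth factors 19 were below 0, beside 243 of all 403 list genes, and 2 had an unadjusted p under 0.05. LIF, a cytokine of the IL-6 family, had run means of 6.92, 5.86 and 4.35 with HEC and 5.88, 4.65 and 6.50 with CMC, beside a GM median of 6.70 and a range of 5.33 to 9.01. The 3 HEC runs were themselves more than 2 apart on the log2 scale, and the difference was -1.01 (-1.76 to -0.25, unadjusted p = 0.0107). It was -1.17 (unadjusted p = 0.0159) without the runs that stood apart and -0.22 within them. IL24 differed by -0.76 (-1.41 to -0.10, p = 0.0247 unadjusted), by -0.56 (p = 0.0683 unadjusted) without the runs that stood apart, and by 0.49 against GM replicates 1 to 9. CLDN4, a claudin of tight junctions, was the last of the 7 at -1.55 (-3.03 to -0.082, unadjusted p = 0.0393), with GM runs between 3.58 and 9.10, and it was -1.43 (unadjusted p = 0.0929) without the runs that stood apart and 0.27 against GM replicates 1 to 9.

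The remaining lists held no gene past the unadjusted threshold but CLDN4. Of 25 cell cycle genes 22 were placed within 2-fold, with CDKN1A, the inhibitor p21, outside at -0.59 (95% interval -1.22 to 0.035). Of 16 targets of YAP and serum response factor 13 were, and CCN2, a matricellular growth factor, differed by -1.06 (-2.20 to 0.080) and by 0.21 against GM replicates 1 to 9. Of 28 genes of matrix, integrins and proteases 21 were placed within 2-fold, of 20 junction genes 12, of 17 chemokines 10 and of 9 mucins and related genes 6. MUC4, a membrane mucin, differed by -0.32 (-0.76 to 0.12). The medians of these lists lay between -0.18 for the mucins and 0.043 for the matrix genes. Against GM replicates 1 to 9 the median was 0.25 for the cell cycle genes, with 20 of 25 above 0. For the matrix genes it was -0.24, with 21 of 28 below 0, and for the mucins 0.088.

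**Figure D4:**
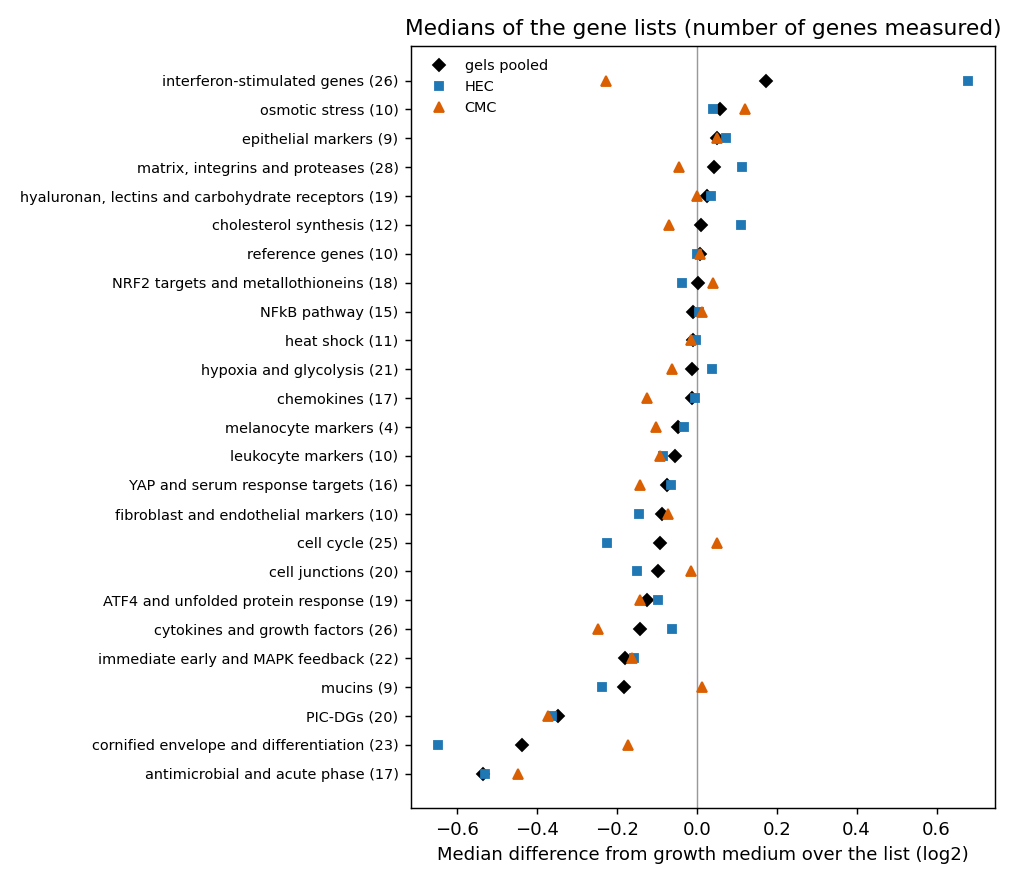
Median difference from GM on the log2 scale (x axis) over the measured genes of each list (rows, with the number of genes) for the pooled gels (diamonds), HEC (squares) and CMC (triangles), which share the GM runs. Most pooled medians lie between -0.2 and 0.2, the antimicrobial and cornified lists are lowest with the pooled gels, and HEC and CMC are farthest apart in the interferon-stimulated genes.

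The genes with the smallest p, among named probesets above a floor on level, were taken as a description of the extremes, since none passed. The floor was set on the higher of the GM and gel means, so a gene could pass it only through the group where it was high. TMEM143, CLASP2, SEZ6L and FOXN3 passed only through the gels. SCPEP1, BANK1, CRYGB, EML2-AS1 and SFTPB, among others, passed only through GM, and no support is drawn from their differences. Only probesets with all 6 gel runs on the same side of the GM median could enter, so that trait is fixed by the choice. SCPEP1, a serine carboxypeptidase, had run means of 5.10, 4.73 and 5.36 with HEC and 4.85, 4.82 and 4.94 with CMC. All 6 lay below the GM median of 6.07, which the choice required. None lay below the lowest GM run at 4.69, which was run 2, a run that stood apart. The difference was -0.98 (95% interval -1.40 to -0.57, unadjusted p = 3.8e-05), with -0.997 without the runs that stood apart and -0.36 within them. HDAC6, the cytoplasmic deacetylase of tubulin, was at 5.63, 5.34 and 5.43 with HEC and 5.81, 6.03 and 6.10 with CMC, beside GM runs of 5.85 to 7.00. The 3 HEC runs and CMC run 1 were below every GM run, and the difference was -0.77 (-1.10 to -0.44), with -0.74 without the runs that stood apart and -0.61 within them.

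TMEM143, a transmembrane protein, led in the other direction. Its run means were 4.88, 6.59 and 6.68 with HEC and 6.95, 6.30 and 5.05 with CMC, and 4 of the 6 lay above the highest of the GM runs, which had a range of 3.53 to 5.88. The difference was 1.57 (0.81 to 2.33, unadjusted p = 0.000211), 1.32 without the runs that stood apart and 1.49 within them. The others with the smallest p were RAX2, PADI2, IRAG1, LOC390705, BANK1, CRYGB, EML2-AS1 and SFTPB below GM, from -0.75 for CRYGB to -1.13 for SFTPB. Above GM they were OR3A3, SEZ6L, GPC3, EFHB, LRRC40, CLASP2, FOXN3, MIATNB and TAS2R39, from 0.41 for TAS2R39 to 1.22 for CLASP2.

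**Figure D5:**
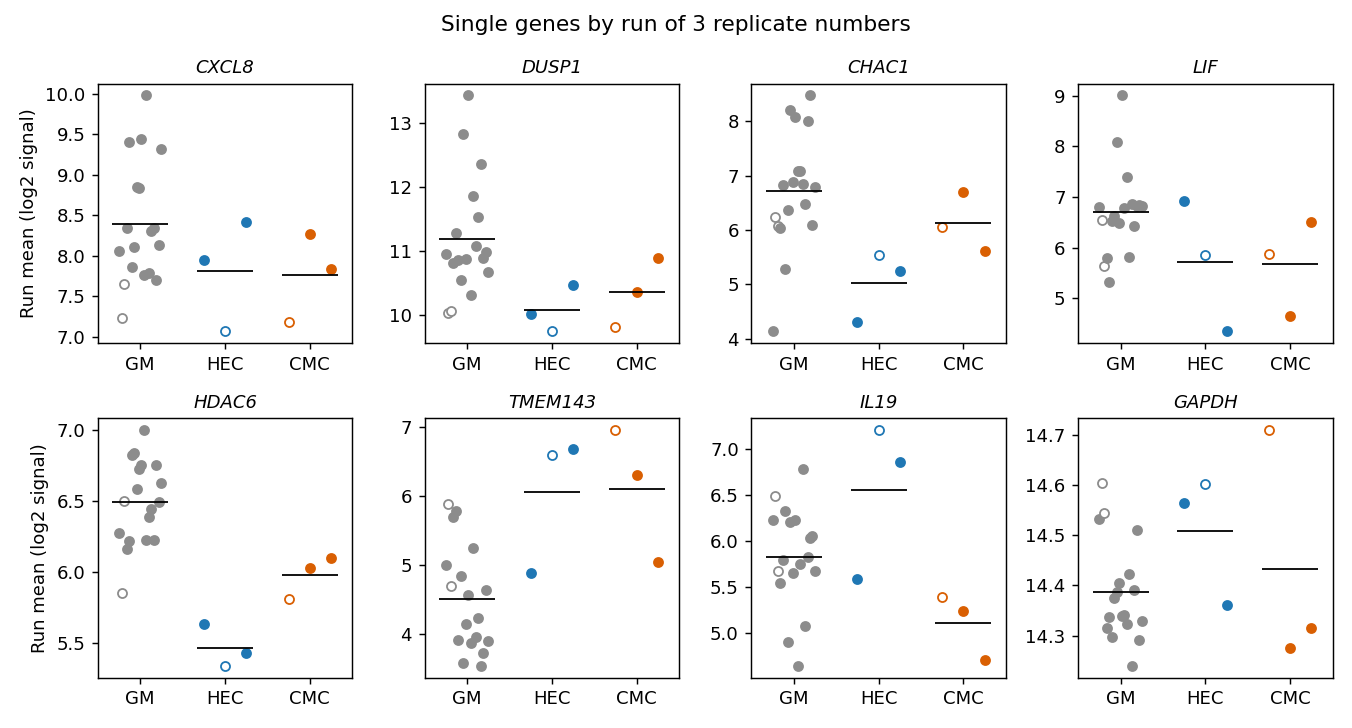
Run means on the log2 scale (y axis) of 8 genes in 18 GM, 3 HEC and 3 CMC runs (x axis), with open symbols for the runs that stood apart and a bar at the mean of each group. All 6 gel runs of CHAC1 lie within the GM range, 2 of 6 of CXCL8, 2 of LIF and 3 of DUSP1 lie below all GM runs, 4 of HDAC6 lie below and 4 of TMEM143 above all GM runs, IL19 is higher with HEC than with CMC on average, and GAPDH stays within 0.5 on the log2 scale.

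HEC and CMC were then compared with each other, the single pair of compounds at matched dose and time, with the 3 runs of each. Of 54613 probesets 0 were called, 1108 (2.03%) had an unadjusted p under 0.05, and the smallest adjusted p was 1. That the neutral and the charged ether act alike is not shown by this, since the 95% interval reached a median of 0.848 (log2) to either side and the equivalence test placed 22227 probesets (40.7%) within 2-fold of each other. In the brightest 20% it placed 77.2%. The largest estimate was 2.89 higher and the lowest -2.68 with HEC, and 1756 estimates passed 2-fold.

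By the size of p the leading genes higher with HEC were LOC101927377, IL19 and EFR3B, and those lower were DHRS7, CYP3A4 and ZNF41. IL19, a cytokine of the IL-10 family, was at 5.59, 7.20 and 6.85 with HEC and 5.39, 5.23 and 4.71 with CMC, so that the 3 HEC runs lay above the 3 CMC runs, while GM spanned 4.64 to 6.78. HEC minus CMC was 1.44 (95% interval 0.52 to 2.35, unadjusted p = 0.00322), and the pooled difference from GM was 0.0054 (-0.52 to 0.53). CYP3A4, a cytochrome P450 of drug metabolism, was at 5.26, 6.08 and 4.98 with HEC and 6.52, 6.63 and 6.59 with CMC, with a difference of -1.14 (-1.79 to -0.49, unadjusted p = 0.00113). DHRS7, a short-chain dehydrogenase, differed by -0.72 (-1.11 to -0.33, unadjusted p = 0.00073).

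Interferon-stimulated genes were the list in which the gels stood farthest apart, with a median difference from GM of 0.68 with HEC and -0.23 with CMC over 26 genes. Pooled, 20 of the 26 were above 0, beside 160 of all 403 list genes, with a median of 0.17. Of the 26, 9 were placed within 2-fold, and none had an unadjusted p under 0.05 either pooled or between the gels. MX1, an antiviral GTPase, had run means of 9.96, 11.82 and 11.69 with HEC and 11.45, 9.86 and 8.32 with CMC, and GM runs 2 and 3 were at 11.95 and 11.84 where the GM range was 7.04 to 12.64. HEC minus CMC was 1.28 for MX1 (-1.69 to 4.25). Within the runs that stood apart 24 of the 26 were below 0 when the gels were compared with GM, and against GM replicates 1 to 9 the median of the list was -0.22, with 17 below 0. The pooled difference of MX1 was 0.74, with 0.44 without the runs that stood apart, -0.26 within them and -0.60 against GM replicates 1 to 9.

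The control measures of gel and GM runs overlapped. For the 18S probesets the gel runs spanned 7.02 to 13.61 and the 13 GM runs with these rows in order spanned 6.52 to 13.66, with a mean difference of 0.40 on the log2 scale (two-sided exact permutation test, p = 0.731). Without the runs that stood apart the difference was 1.53 (two-sided exact permutation test, p = 0.0755), against GM replicates 1 to 9 it was 2.67 (two-sided exact permutation test, p = 0.179), and leaving out a gel run gave -0.018 to 1.3, below 0 without HEC run 3 or CMC run 2. The 3' minus 5' difference of GAPDH, a sign of RNA integrity, was lower with the gels by 0.063 (-0.063, two-sided exact permutation test, p = 0.0945). Over all 7 such measures the smallest adjusted p was 0.335.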

How the data were processed

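RNA of Vk2/E6E7 cells had been labelled and hybridized to U133 Plus 2.0 arrays. The authors deposited the log2 values as a table of 54675 probesets by 105 arrays. MAS5 and GCOS 1.3 are named in the submitters' processing notes and RMA in the methods, and MAS5 values make dim probesets noisier, so folds and intervals at low levels depend on that step. GM replicate 52, whose values correlated at 0.0484 at most with any other array, and TNF-alpha replicate 6, equal to the mean of replicates 1 to 3 within 7.67e-09, were left out, and 103 arrays were used. In 23 arrays (14 GM and 3 each of IMQ, MALP2 and N9) 1118 probesets in 2 blocks follow another sort of the probeset IDs and were moved by 1 row; control rows of these arrays, whose order was not worked out, were not used. Among list genes this touches CDC20, CXCL8, DDIT4, DNAJB9, E2F1 and HPRT1.

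Values were quantile normalized, averaged over runs of 3 replicate numbers (35 runs; 1 GM run has 2 arrays) and fitted over all 8 groups with limma 3.58.1 in R 4.3.3 (27 residual degrees of freedom), the table being read with data.table (version 1.17.8). Contrasts were HEC and CMC averaged minus GM, each gel minus GM, and HEC minus CMC, adjusted by Benjamini-Hochberg over 54613 probesets with no filter on dim ones and without the 62 control probesets. The same steps were tested on simulated data, drawn independently for each probeset and run. These held no runs that stood apart and no displaced rows, so the test does not cover those features. Depth is not defined for arrays, and the number of runs limits the precision.

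Gene names come from the annotation of the platform. It gives 1 gene for 41091 probesets, several for 1801 and none for 11721 (3 of the last were named from a table of the study). Of 448 list genes 403 had a probeset, and the one with the highest mean was used, or for PIC-DGs the one in the study's table. Named genes are the PIC-DGs, COL8A1 and MMP1, the 10 smallest p in each direction with a level above the 40th percentile (5.75), 3 in each direction for HEC against CMC, 2 of each list by p, and a few fixed ones. The 10 in each direction also had to have all 6 gel runs on the same side of the GM median. The level filter, also used for HEC against CMC, took the higher of the GM and gel means. Other list genes named with values are members given as examples, chosen after their values were seen. The members and lists were chosen with earlier results of these data known. Alternatives were arrays as units, a random block for runs, other normalizations, an offset of 16, brighter probesets only, other controls, a replicate block, runs left out, the methods' analysis of variance, and, chosen after seeing the data, the runs that stood apart and the displaced rows.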

Additional observations from a re-analysis of the deposited data

Results flagged for a closer look

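Of 98 values tested among the 6 gel runs, 4 had a run far from the others, and chance flags about 1 in 20. AMOTL2 was at 10.91 in CMC run 1, with the other gel runs between 11.46 and 11.61 on the log2 scale. CRYGB was at 3.71 in HEC run 1, with the others between 4.92 and 5.63. MVD, of cholesterol synthesis, was at 7.06 in HEC run 1, with the others between 7.93 and 8.14. GM run 1 was lower for MVD, at 6.75, and the other GM runs lay between 7.41 and 8.48. RNASE7, an antimicrobial ribonuclease, was at 7.57 in HEC run 1, with the others between 6.88 and 7.12.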

How the results depend on the processing

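Counts of called probesets were 0 in all comparisons of runs except where named here, and depended on the unit. Arrays as units gave 38 for the pooled gels, 170 for HEC, 4 for CMC and 2 list genes past the adjusted test (DUSP1 and CHAC1), and the methods' analysis of variance over arrays gave 168, 598, 152, 463 for HEC against CMC and 44 in both gels. Leaving out a gel run gave 0 to 2 for the pooled gels, 0 to 6 for HEC, 0 to 2 for CMC and 0 to 1 for HEC against CMC, with 41551 to 45310 probesets placed within 2-fold and interval margins of 0.52595 to 0.5345, and the 18S difference ranged from -0.018 to 1.3, below 0 without HEC run 3 (-0.018) and without CMC run 2 (-0.0035). Without the runs that stood apart there were 2, 1 and 1 called for the pooled gels, HEC and CMC, with a block for them 1 for CMC, and within them 6 for CMC and 4 for HEC against CMC, with a margin of 0.9748, 15661 probesets within 2-fold, and CYLD, SFTPB and TGM3 turned to 0.021, 0.037 and 0.075. Brighter probesets only left 25917 within 2-fold, of fewer tested. Same-numbered runs of HEC and GM deviated together in runs 1 and 2 but not in run 3 (0.474, 0.607 and -0.319). For CMC with GM the values were 0.006, -0.356 and -0.393, and for HEC with CMC -0.282, -0.448 and 0.087. These values do not settle whether the numbers pair the runs. GM replicates 1 to 9 as the only controls gave a margin of 0.776 and 24623 within 2-fold without a replicate block, and 0.795 and 21972 with the replicate block by run; arrays with the replicate block gave 1 called for the pooled gels (MALAT1), 52 for CMC and 3 for HEC against CMC (IFI6, MALAT1, PRICKLE1). With these controls 45 of the 97 named genes changed sign, among them 5 of the 28 with an unadjusted p under 0.05, CHAC1 (0.096), CLDN4 (0.27), CYLD (0.57), IL24 (0.49) and TAS2R39 (-0.022), and the medians of the PIC-DGs (0.10), cornified (0.053) and interferon-stimulated lists (-0.22) did too. So did those of the cell cycle (0.25), matrix (-0.24), mucin (0.088), cytokine (0.049), ATF4 (0.035), osmotic (-0.075) and hyaluronan (-0.053) lists. The medians of the reference genes (-0.007) and of the epithelial (-0.012) and fibroblast and endothelial markers (0.092) changed sign as well. The other list medians kept their sign. Of the 97, 24 changed sign within the runs that stood apart, 8 without them and 2 without the runs with displaced rows. The cause of these changes was not tested. Signal near background limits the dim probesets.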
